A study of Homo sapiens with 12 samples.

Results

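The transcripts of 9 genes of the tight junction were followed in HK-2 cells, which are immortalised epithelial cells from the human renal proximal tubule, after exposure to the cadmium compound labelled CdCl. The genes were taken by symbol: the claudins CLDN1, CLDN2, CLDN3, CLDN4, CLDN7, CLDN12 and CLDN16, the membrane protein occludin (OCLN) and the scaffold protein TJP1, also called ZO-1. Each was read on the Affymetrix probe set that is annotated to that symbol alone and has the highest mean over all arrays. They are 9 of 19775 genes on the array, and 8 of them were among the 10683 genes tested, those with a log2 signal above 4 on at least 3 arrays. CLDN7 lay under that level on every array.

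The 4 groups were CdCl for 12 h, control vehicle for 12 h, CdCl for 48 h and control vehicle for 48 h, with 3 biological replicates and 1 array per replicate. All cells were the same line, grown in a medium supplemented with insulin, transferrin, selenite, hydrocortisone and epidermal growth factor, and were treated when close to confluence. The sources used here do not give the CdCl dose. The labels call the replicates biological and say no more about them, so p-values measure the spread between these arrays. The study asked how exposure to kidney-toxic compounds changes gene expression, and this series set CdCl against vehicle at each time.

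Tight junctions seal the space between neighbouring epithelial cells near their apical side. Claudins are membrane-spanning proteins that meet across that space, and the set of claudins a cell makes decides which ions and how much water pass between cells. CLDN2 forms a pore for small cations and water and is the characteristic claudin of the leaky proximal tubule. CLDN16 is needed for magnesium and calcium reabsorption in the thick ascending limb, CLDN12 has been linked to calcium permeability in mice, and CLDN1, CLDN3, CLDN4 and CLDN7 are mostly found in tighter epithelia. Occludin regulates the junction's barrier, and TJP1 ties claudins and occludin to the actin cytoskeleton.

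Promoter sequences are shown for the 3 claudins that changed most at 48 h, because members that move together or apart can be set beside the letters at their start sites. They are RefSeq's, build GRCh38.p14, and run from 250 bases before to 50 bases after an annotated start, 5′ to 3′ on the gene's strand. CLDN2 has 2 entries, at chrX:106899914-106900213 and chrX:106918110-106918409, CLDN4 has 1 at chr7:73830746-73831045 and CLDN12 has 1 at chr7:90403211-90403510, all on the plus strand. Capitals mark matches on either strand to the motifs searched: the AP-1 site TGANTCA, the metal response element core as TGCACNC or TGCGCNC, the GC box GGGCGG, the E-box CAGGTG bound by SNAI and ZEB factors, a grainyhead core AACCGG, an HNF1 core GTTAAT and the TATA box TATAAA. N stands for any base, so TGANTCA is a loose form of the AP-1 site. No marked match overlaps another.
CLDN2 promoter 1: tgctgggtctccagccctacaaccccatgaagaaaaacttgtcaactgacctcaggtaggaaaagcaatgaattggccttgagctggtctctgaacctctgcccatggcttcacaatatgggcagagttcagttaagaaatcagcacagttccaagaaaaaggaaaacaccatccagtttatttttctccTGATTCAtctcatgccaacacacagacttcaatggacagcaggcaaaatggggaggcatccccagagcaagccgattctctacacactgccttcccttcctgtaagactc
CLDN2 promoter 2: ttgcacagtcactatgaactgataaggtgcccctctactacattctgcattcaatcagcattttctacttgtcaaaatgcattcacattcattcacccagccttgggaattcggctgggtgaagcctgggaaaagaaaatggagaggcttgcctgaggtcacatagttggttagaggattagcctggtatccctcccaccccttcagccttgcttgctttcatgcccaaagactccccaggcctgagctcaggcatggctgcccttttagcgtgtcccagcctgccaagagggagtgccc
CLDN4 promoter: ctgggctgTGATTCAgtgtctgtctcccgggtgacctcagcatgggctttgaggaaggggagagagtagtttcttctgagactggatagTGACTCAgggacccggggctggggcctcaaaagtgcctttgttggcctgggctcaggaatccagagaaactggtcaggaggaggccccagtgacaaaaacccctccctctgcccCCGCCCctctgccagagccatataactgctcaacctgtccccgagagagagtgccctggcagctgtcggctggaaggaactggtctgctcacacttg
CLDN12 promoter: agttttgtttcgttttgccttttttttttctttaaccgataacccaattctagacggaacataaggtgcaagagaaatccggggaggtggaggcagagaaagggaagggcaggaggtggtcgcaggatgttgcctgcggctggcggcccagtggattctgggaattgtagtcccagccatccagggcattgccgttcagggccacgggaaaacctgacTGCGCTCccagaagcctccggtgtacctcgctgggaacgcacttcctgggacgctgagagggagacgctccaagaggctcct

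The first CLDN2 promoter holds 1 match to the loose AP-1 pattern, TGATTCA, at position -60 counted from the start, and the second holds no match. The CLDN4 promoter holds matches to that pattern at -242 (TGATTCA) and -161 (TGACTCA) and a GC box at -47. The CLDN12 promoter holds 1 metal response element core, TGCGCTC, at -32. TGANTCA occurs in 7.71% and TGCGCNC in 20.0% of the 35116 promoters of the same length in RefSeq's table. They occur in 3 and 6 of the 16 promoters of the 9 genes. TGCACNC stands in 1 of the 16 (12.1% of all promoters), CAGGTG in 6 (20.6%), the GC box in 9 (45.0%), the grainyhead core in 3 (7.23%), and the HNF1 core and the TATA box in 0 (6.88% and 11.5%). A match describes the letters only and is not evidence of binding. The CLDN2 promoters have 1 and 2 CpG and that of CLDN4 has 5, against 15 for CLDN12 and a median of 14 over all promoters. RefSeq places CLDN1 inside the span of CLDN16 on chromosome 3, on the other strand, and lists no protein-coding gene between CLDN3 and CLDN4 on chromosome 7.

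Log2 signals had medians of 2.97 to 3.04 per array and highest values of 15.65 to 15.79. Arrays of one group correlated at 0.9965 to 0.9982 over all probe sets and arrays of different groups at 0.9731 to 0.989. The actin 3' probe set exceeded the 5' one, a measure of RNA quality, by 1.69 to 1.80 in CdCl and 1.71 to 2.11 in control arrays at 12 h, and 1.40 to 1.82 in CdCl and 1.36 to 1.57 in control arrays at 48 h. Of 14 proximal tubule markers with a usable probe set, 11 lay under 4 on all arrays. Among them were the brush border receptors LRP2 and CUBN, the water channel AQP1 and the phosphate transporter SLC34A1. The proximal tubule type of the line was thus not borne out by most of these markers, each read on 1 probe set. CDH6, MIOX and SLC4A4 were measured, with highest values of 12.5, 9 and 12.74. Markers of thick limb and distal tubule lay under 4 on all arrays for 6 of 8 genes, those of collecting duct for 6 of 10, and those of endothelial, stromal and blood cells for 8 of 10.

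At 12 h, 3 of the 8 tested genes were higher with CdCl (CLDN4, CLDN12 and CLDN16) and 2 were lower (CLDN2 and CLDN3), by limma with Benjamini-Hochberg adjusted p under 0.05 over all genes tested. Over all tested genes, 16.7% were called higher and 39.7% lower. At 48 h, 4 of the 8 were higher (CLDN4, CLDN12, OCLN and TJP1) and 1 was lower (CLDN2), beside 26.5% of all genes called higher and 28.0% lower. The median change of the 8 genes was 0.05 at 12 h and 0.17 at 48 h on the log2 scale, against -0.16 and -0.02 for all genes tested. With each array centred on its median over the genes tested, an alternative added after the data were seen, 2607 genes were higher and 2830 lower at 12 h, in place of 1783 and 4246, and the tight junction genes counted 3 higher and 0 lower. For CLDN2 and CLDN3 the value under that scaling stands beside the call.

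**Figure D1:**
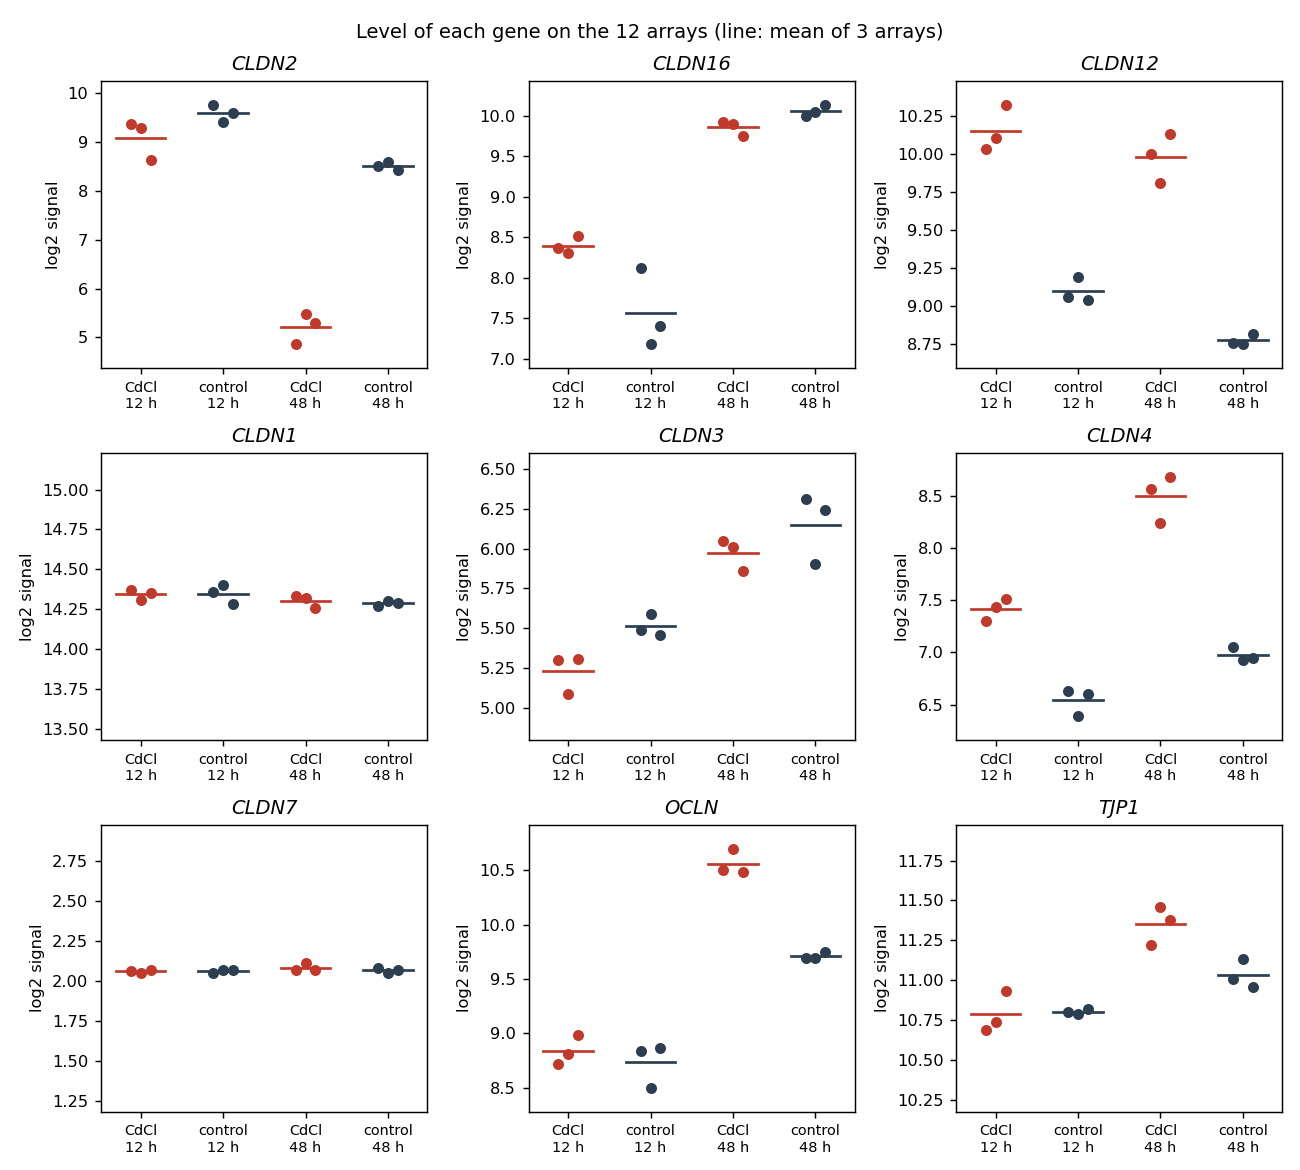
Log2 signal of the 9 tight junction genes on each of the 12 arrays, 1 panel a gene with its own vertical axis, in CdCl and control cells at 12 h and 48 h, with points for arrays and short lines for means of 3 arrays. CLDN2 lies between 4.86 and 5.48 in CdCl cells at 48 h, CLDN12 and CLDN4 are higher in CdCl cells at both times, and CLDN1 stays between 14.26 and 14.40.

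CLDN2, the cation and water pore, showed the largest change of the 9 genes. Its log2 signal was 4.86, 5.48 and 5.29 in the CdCl cells at 48 h, against 8.50, 8.60 and 8.42 in the control cells. At 12 h it was 9.36, 9.28 and 8.63 with CdCl, against 9.76, 9.42 and 9.59 in control cells. All CdCl arrays lay below all control arrays at both times, with a wide gap at 48 h and a narrow one at 12 h. The fall at 48 h was 9.84-fold (log2 change -3.30 ± 0.19, SE, limma adjusted p = 9.2e-08, n = 3 arrays a group) and was the 10th lowest of the 10683 changes. The change at 12 h was -0.50 ± 0.19 (limma adjusted p = 0.044).

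The 12 h call for CLDN2 rests on single arrays. Without replicate 3 of the CdCl 12 h group, which read 8.63, the change was -0.27 (limma adjusted p = 0.19), and the call also ended without control 12 h replicate 1 or 3, without CdCl 48 h replicate 3 and without any 1 of the control 48 h arrays. With arrays centred over the genes tested it was -0.35 (limma adjusted p = 0.15). In these bulk samples fewer cells that make a transcript and less of it per cell cannot be told apart. Of the 3 proximal tubule markers tested, 2 moved with CLDN2 at 48 h: CDH6, a cadherin of the developing tubule, with a log2 change of -2.24 ± 0.12 and SLC4A4, the basolateral bicarbonate cotransporter, at -3.16 ± 0.11 (limma adjusted p = 5e-08 and 2.3e-09). MIOX, the inositol-degrading enzyme, did not: it changed by 0.15 ± 0.09 at 48 h (limma adjusted p = 0.15), with all CdCl arrays above the controls. The summed linear signal of the list was 1610 to 1700 in CdCl and 8110 to 9660 in control arrays at 48 h. It was carried by CDH6 and SLC4A4 in control cells. In CdCl cells MIOX also had a large part, with a mean of 8.93 beside 8.63 for CDH6 and 9.46 for SLC4A4. The part of these markers in the CLDN2 result was not tested.

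CLDN2 was lower at 48 h than at 12 h in both conditions. In CdCl cells the value at 48 h was 14.7-fold below that at 12 h (log2 change -3.88 ± 0.19, limma adjusted p = 1.6e-08), the 4th lowest change of all genes tested. In control cells the change was -1.08 ± 0.19 (limma adjusted p = 0.00051), with all 48 h arrays below all 12 h arrays. The CdCl effect at 48 h minus that at 12 h was -2.80 ± 0.27 (interaction, limma adjusted p = 2.9e-05), the 23rd lowest of the interaction values. From low to high, the groups ran CdCl 48 h (5.21 ± 0.32, SD), control 48 h (8.51 ± 0.09), CdCl 12 h (9.09 ± 0.40) and control 12 h (9.59 ± 0.17).

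CLDN16, a claudin of the thick ascending limb, was higher with CdCl at 12 h. It read 8.37, 8.30 and 8.51 in CdCl cells, against 8.12, 7.18 and 7.41 in control cells. At 48 h it read 9.92, 9.90 and 9.75 with CdCl, against 9.99, 10.04 and 10.13 without. The CdCl arrays all lay above the controls at 12 h and all below them at 48 h. The change was 1.77-fold at 12 h (0.82 ± 0.18, limma adjusted p = 0.0025), and 0.63 to 1.10 when each array was left out in turn. At 48 h it was -0.20 ± 0.18 with a 95% interval of -0.60 to 0.21 and did not pass (limma adjusted p = 0.39).

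The larger movement of CLDN16 was with time. CdCl cells at 48 h were 2.76-fold above CdCl cells at 12 h (1.46 ± 0.18, limma adjusted p = 2.7e-05). Control cells at 48 h were 5.59-fold above control cells at 12 h (2.48 ± 0.18, limma adjusted p = 4.8e-07), the 42nd highest of the 10683 changes. The CdCl effect at 48 h minus that at 12 h was -1.02 ± 0.26 (interaction, limma adjusted p = 0.0092). The means were 9.86 ± 0.09 (SD) in CdCl and 10.05 ± 0.08 in control cells at 48 h, and 8.39 ± 0.11 in CdCl and 7.57 ± 0.49 in control cells at 12 h. Both 48 h groups thus lay above both 12 h groups, and the 48 h pair did not differ beyond the test's threshold. Among other thick limb and distal tubule markers, KCNJ1, the apical potassium channel, lay under 4 on all arrays, and SLC12A1, the salt cotransporter, reached 4.28 at most. FXYD2, a regulator of the sodium pump and the only one of the list tested, averaged 13.10 ± 0.31 in CdCl and 13.12 ± 0.07 in control cells at 12 h, and 12.36 ± 0.13 and 13.75 ± 0.05 at 48 h (SD). It was higher at 48 h than at 12 h in control cells (0.64), as CLDN16 was, and lower in CdCl cells (-0.74).

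CLDN12 was higher with CdCl at both times. It read 10.03, 10.10 and 10.32 in CdCl cells at 12 h, against 9.06, 9.19 and 9.04 in control cells. At 48 h it read 10.00, 9.81 and 10.13 with CdCl, against 8.76, 8.75 and 8.82 without. Every CdCl array was above every control array at both times. CLDN12 rose 2.07-fold at 12 h (1.05 ± 0.10, limma adjusted p = 4.1e-06) and 2.30-fold at 48 h (1.20 ± 0.10, limma adjusted p = 1.1e-06). The difference between these effects was 0.15 ± 0.14, with a 95% interval of -0.15 to 0.45 (limma adjusted p = 0.40).

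In CdCl cells the difference between 48 h and 12 h was -0.17 ± 0.10 (95% interval -0.38 to 0.04, limma adjusted p = 0.15). Control cells at 48 h differed from those at 12 h by -0.32 ± 0.10 (limma adjusted p = 0.014), a call that ended without replicate 2 of the control 12 h group (-0.28, limma adjusted p = 0.054). The group means were 10.15 ± 0.15 (SD) in CdCl 12 h, 9.98 ± 0.16 in CdCl 48 h, 9.10 ± 0.08 in control 12 h and 8.78 ± 0.04 in control 48 h cells.

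CLDN4, a barrier-forming claudin of distal and collecting segments, was higher with CdCl at both times and more so at 48 h. It read 8.56, 8.24 and 8.68 in CdCl cells at 48 h, against 7.05, 6.93 and 6.95 in control cells. At 12 h it read 7.30, 7.43 and 7.51 with CdCl, against 6.63, 6.39 and 6.60 without. The CdCl and control arrays did not overlap at either time. CLDN4 rose 1.83-fold at 12 h (0.87 ± 0.11, limma adjusted p = 5e-05) and 2.86-fold at 48 h (1.52 ± 0.11, limma adjusted p = 5.4e-07), and the effects differed by 0.64 ± 0.16 (interaction, limma adjusted p = 0.0075). On the mean with its second probe set, which was near the bottom of the scale on every array, the changes were 0.43 and 0.76 and still passed.

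CLDN4 also rose with time in both conditions. CdCl cells at 48 h were above those at 12 h by 1.08 ± 0.11 (limma adjusted p = 5.4e-06), and control cells at 48 h were above control cells at 12 h by 0.44 ± 0.11 (limma adjusted p = 0.0053). The groups ran CdCl 48 h (8.49 ± 0.22, SD), CdCl 12 h (7.41 ± 0.10), control 48 h (6.98 ± 0.06) and control 12 h (6.54 ± 0.13). Of 4 tested markers of the collecting duct, where CLDN4 is abundant, 0 were higher and 1 was lower at 12 h. At 48 h, 1 was higher and 2 were lower. Of all genes 16.7% were higher and 39.7% lower at 12 h, and 26.5% and 28.0% at 48 h. A list of 4 genes is too short to be set apart from these shares. The summed linear signal of that list was 216 to 261 in CdCl and 307 to 346 in control arrays at 12 h, and 287 to 331 and 420 to 425 at 48 h. Most of that sum was the signal of 1 gene, SCNN1A, so it mainly reads that gene and not the list. The 48 h rise in that list was ATP6V0D2, a subunit of the proton pump that is also found outside the duct, at least 3.09-fold (control arrays set to 4), and SCNN1A, the alpha subunit of the epithelial sodium channel, fell by 0.61 ± 0.12 at 12 h and by 0.81 ± 0.12 at 48 h (limma adjusted p = 0.0011 and 0.00014). On the mean of its probe sets SCNN1A changed by -0.14 at 12 h, which did not pass (limma adjusted p = 0.11), and by -0.32 at 48 h. The other marker lower at 48 h was AQP3, by at least 1.21-fold (CdCl arrays, all under 4, set to 4).

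CLDN3, the neighbour of CLDN4 on chromosome 7 and likewise a barrier claudin, was not higher with CdCl at either time. It read 5.30, 5.09 and 5.31 in CdCl cells at 12 h, against 5.49, 5.59 and 5.46 in control cells. At 48 h it read 6.05, 6.01 and 5.86 with CdCl, against 6.31, 5.90 and 6.24 without. The CdCl arrays lay below all controls at 12 h, and the groups overlapped at 48 h. The 12 h change was -0.28 ± 0.11 (limma adjusted p = 0.048) and the 48 h change -0.18 ± 0.11 (95% interval -0.42 to 0.06, limma adjusted p = 0.19).

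The CLDN3 calls were sensitive to single arrays. The 12 h call ended without any 1 of the 6 arrays of that time (limma adjusted p = 0.055 to 0.17), without CdCl 48 h replicate 1 or 2 and without control 48 h replicate 3 (0.053 to 0.056), and with arrays centred over the genes tested it was -0.13 (limma adjusted p = 0.39). At 48 h CLDN3 passed without control replicate 2, which read 5.90 (-0.30, limma adjusted p = 0.02). With time it rose in both conditions, by 0.74 ± 0.11 in CdCl cells and by 0.64 ± 0.11 in control cells (limma adjusted p = 9.7e-05 and 0.00037). The probe set is of a type (_x_at) that can also bind related transcripts.

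CLDN1, the widely expressed barrier claudin, lay near the top of the array scale. On its brightest probe set all 12 arrays were between 14.26 and 14.40, and the groups overlapped at both times. The change was 0.00 ± 0.06 at 12 h (95% interval -0.13 to 0.13, limma adjusted p = 0.99) and 0.02 ± 0.06 at 48 h (95% interval -0.11 to 0.15, limma adjusted p = 0.82). So close to the top of the scale a change could be understated, which was not tested. The dimmer CLDN1 probe set, given below, changed by 0.73 ± 0.12 at 12 h. CLDN7, a claudin of distal segments and collecting duct, was at 2.05 to 2.11 on all 12 arrays and was not tested. In a fit with no filter, over 19775 genes, its change was -0.0058 at 12 h and 0.018 at 48 h (limma adjusted p = 0.89 and 0.58).

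OCLN, the membrane protein occludin, was higher with CdCl at 48 h. It read 10.50, 10.70 and 10.48 in CdCl cells, against 9.69, 9.69 and 9.75 in control cells. At 12 h it read 8.72, 8.81 and 8.99 with CdCl, against 8.84, 8.50 and 8.87 without. The groups did not overlap at 48 h and overlapped at 12 h. OCLN rose 1.80-fold at 48 h (0.85 ± 0.11, limma adjusted p = 4e-05), while the 12 h change was 0.10 ± 0.11 (95% interval -0.13 to 0.34, limma adjusted p = 0.44), and the effects differed by 0.75 ± 0.15 (interaction, limma adjusted p = 0.0026).

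OCLN was higher at 48 h than at 12 h in both conditions. CdCl cells at 48 h were 3.30-fold above CdCl cells at 12 h (1.72 ± 0.11, limma adjusted p = 8.8e-08), and control cells at 48 h were above control cells at 12 h by 0.97 ± 0.11 (limma adjusted p = 1.2e-05). The groups ran CdCl 48 h (10.56 ± 0.12, SD), control 48 h (9.71 ± 0.03), CdCl 12 h (8.84 ± 0.13) and control 12 h (8.74 ± 0.20), the last pair not differing beyond the threshold.

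TJP1, the ZO-1 scaffold, changed least among the genes called at 48 h. It read 11.22, 11.46 and 11.38 in CdCl cells at 48 h, against 11.01, 11.13 and 10.96 in control cells. At 12 h it read 10.69, 10.74 and 10.93 with CdCl, against 10.80, 10.79 and 10.82 without. The CdCl arrays lay above all controls at 48 h, and the groups overlapped at 12 h. TJP1 rose 1.25-fold at 48 h (0.32 ± 0.08, limma adjusted p = 0.0068), and the 12 h change was -0.02 ± 0.08 (95% interval -0.20 to 0.17, limma adjusted p = 0.88). The effects differed by 0.34 ± 0.12 (interaction, limma adjusted p = 0.041), a call that remained only without CdCl 12 h replicate 3, CdCl 48 h replicate 1 or control 48 h replicate 2 and ended without any of the other 9 arrays (limma adjusted p = 0.065 to 0.097).

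**Figure D2:**
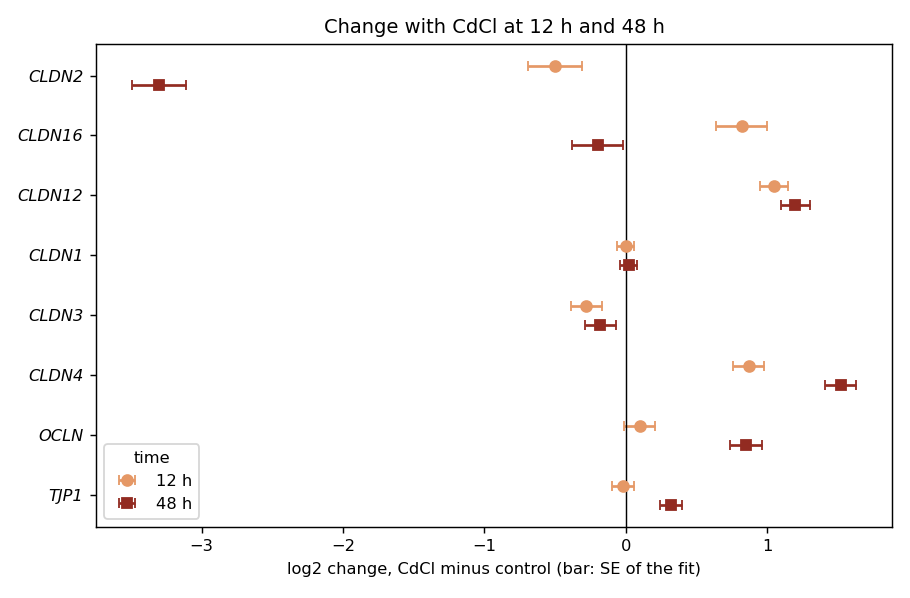
Log2 change, CdCl minus control, at 12 h (circles) and 48 h (squares) for the 8 tested tight junction genes, with bars for the standard error of the limma fit. CLDN2 stands apart at -3.30 at 48 h, while CLDN4 (1.52), CLDN12 (1.20), OCLN (0.85) and TJP1 (0.32) lie above 0.

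Set side by side, 5 of the 8 tested genes had a CdCl effect that differed between the times: OCLN, CLDN4 and TJP1 upward and CLDN2 and CLDN16 downward. Over all tested genes 27.0% were called upward and 13.0% downward in this comparison, or 1907 and 1989 genes with arrays centred over the genes tested in place of 2888 and 1394. The members' median was 0.13, the same as that of all genes. CLDN12, CLDN3 and, on its brightest probe set, CLDN1 did not pass. The second CLDN1 probe set did pass, with -0.68 ± 0.17 (limma adjusted p = 0.01).

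Most of these genes differed between 48 h and 12 h in both conditions. For CdCl cells the later time also meant longer exposure, so culture time and exposure cannot be told apart there. In CdCl cells at 48 h against 12 h, 5 of the 8 were higher (CLDN16, OCLN, CLDN3, CLDN4 and TJP1) and CLDN2 was lower, beside 34.7% of all genes called higher and 27.6% lower. In control cells at 48 h against 12 h, these 5 genes were again higher and CLDN2 and CLDN12 were lower, beside 23.4% and 33.5% of all genes. The medians of the 8 genes were 0.66 in CdCl cells and 0.33 in control cells, against 0.05 and -0.06 for all genes. TJP1 rose by 0.57 ± 0.08 in CdCl cells (limma adjusted p = 9.9e-05) and by 0.23 ± 0.08 in control cells (limma adjusted p = 0.034), the last a call that ended without any 1 of the control 12 h arrays or control 48 h replicate 1 or 2 (0.063 to 0.12). These 2 comparisons share no arrays with each other, but each shares its arrays with the CdCl effects above.

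Several genes are read by more than 1 probe set, and these did not always give the same value. The values in this paragraph come from a limma fit across all probe sets that passed the same filter. The second CLDN1 probe set read 12.95, 12.96 and 13.08 with CdCl at 12 h, against 12.48, 12.20 and 12.10 in control cells, and 13.12, 12.75 and 13.02 with CdCl at 48 h, against 12.85, 13.05 and 12.83. On it the groups did not overlap at 12 h, with a change of 0.73 ± 0.12 (limma adjusted p = 4e-04), and overlapped at 48 h (0.06 ± 0.12, limma adjusted p = 0.73). The first CLDN1 probe set showed no such change at 12 h.

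The 3 OCLN probe sets that passed the filter all rose at 48 h, by 0.85 on the brightest and by 1.19 and 1.39 on the others. At 12 h they differed in direction. The second read 5.61, 5.85 and 5.59 with CdCl, against 6.18, 6.15 and 6.08 in control cells, a fall of 0.45 ± 0.11 on the log2 scale (limma adjusted p = 0.0066), while the third changed by 0.06 (limma adjusted p = 0.80). The second TJP1 probe set rose at both times, by 0.25 ± 0.10 at 12 h and by 0.66 ± 0.10 at 48 h (limma adjusted p = 0.043 and 0.00015), beside -0.02 and 0.32 on the first. The second CLDN3 probe set lay at 2.60 to 2.72 with CdCl and 2.54 to 3.24 without at 12 h, and at 3.26 to 3.50 with CdCl and 3.81 to 4.56 without at 48 h, mostly under the filter. The second CLDN4 probe set was at 2.22 to 2.25 on every array, and the fourth of OCLN reached 4.68 in a CdCl array at 48 h. Whether the probe sets of a gene read different transcript forms was not tested.

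**Figure D3:**
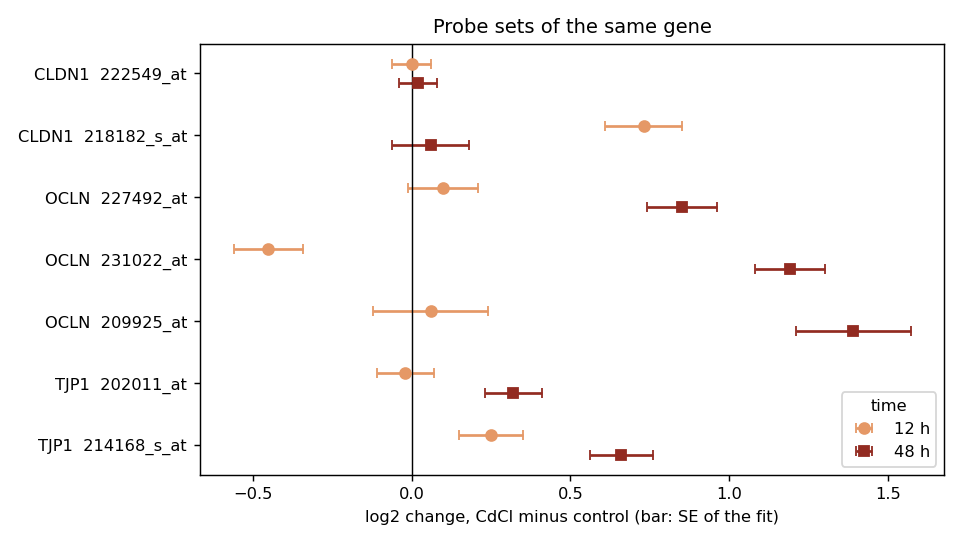
Log2 change, CdCl minus control, at 12 h (circles) and 48 h (squares) on each tested probe set of CLDN1, OCLN and TJP1, with bars for the standard error of the limma fit. At 12 h the second CLDN1 probe set is at 0.73 and the first at 0.00, and the second OCLN probe set is at -0.45 while the others lie close to 0.

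Among the other claudins, 9 of the 13 with a usable probe set lay under 4 on all arrays and 3 were tested. None of these 3 passed at 12 h (median -0.01). Over all genes tested, 16.7% were higher and 39.7% lower at 12 h, and 26.5% and 28.0% at 48 h. At 48 h 1 of the 3 rose (median 0.11). It was CLDN11, a barrier claudin of myelin and testis, at 10.35 ± 0.19 in CdCl and 9.63 ± 0.13 in control cells (SD; log2 change 0.71 ± 0.10, limma adjusted p = 0.00012), or a change of 0.24 on the mean of its probe sets. CLDN15 and CLDN19, the partner of CLDN16 in the thick limb, were the others tested, with group means of 5.73 to 5.89 and 6.44 to 6.46.

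Of 21 tested scaffold and polarity genes, 3 were higher and 9 lower at 12 h (median -0.25), and 3 were higher and 6 lower at 48 h (median -0.06). Of all tested genes 16.7% were higher and 39.7% lower at 12 h, and 26.5% and 28.0% at 48 h, so these shares lie near or, for higher at 48 h, below those of all genes. With arrays centred over the genes tested, the 12 h count was 7 higher and 5 lower, so its direction depends on the scaling. CGN, cingulin, which binds ZO-1, averaged 4.05 ± 0.02 in CdCl and 5.50 ± 0.25 in control cells at 12 h (SD; change -1.45 ± 0.16, limma adjusted p = 1.5e-05), and fell by 0.62 at 48 h (limma adjusted p = 0.0054). The CdCl mean of CGN lay close to 4 at 48 h too (4.08), so its sizes are uncertain. Its paralogue CGNL1 fell by 0.81 ± 0.13 at 12 h and by 1.05 ± 0.13 at 48 h (limma adjusted p = 0.00026 and 3.6e-05). PARD6B, of the apical polarity complex, fell by 1.16 ± 0.19 at 48 h (limma adjusted p = 0.00026). On the mean of probe sets the 48 h changes of CGN and CGNL1 were -0.32 and -0.52.

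Of 7 other tested membrane proteins of the tight junction, 0 were higher and 5 lower at 12 h (median -0.42), and 1 was higher and 3 lower at 48 h (median -0.32), beside 16.7% higher and 39.7% lower of all genes at 12 h and 26.5% and 28.0% at 48 h. The 12 h count was 3 lower without CdCl 12 h replicate 1, with arrays centred over the genes tested and with a filter above 6. The 48 h count was 2 in all without CdCl 48 h replicate 1 and on the mean of probe sets. ILDR2, of the angulin family at tricellular corners, fell by 0.91 ± 0.24 at 12 h and by 0.66 ± 0.24 at 48 h (limma adjusted p = 0.0071 and 0.036), the 48 h call ending without CdCl 48 h replicate 1 or 2 or any control 48 h array, and on the mean of probe sets it changed by -0.46 and -0.33. MARVELD2, tricellulin, which is related to occludin and sits where 3 cells meet, fell by 0.64 ± 0.09 at 12 h (limma adjusted p = 0.00013; -0.41 on the mean of probe sets) and changed by -0.07 ± 0.09 at 48 h (limma adjusted p = 0.56). LSR, another protein of these corners, fell by 0.50 ± 0.11 at 12 h and rose by 0.39 ± 0.11 at 48 h (limma adjusted p = 0.0027 and 0.012). Its 48 h rise ended without CdCl 48 h replicate 1 (0.32, limma adjusted p = 0.053) and was 0.26 without control 48 h replicate 3. CXADR, the coxsackievirus and adenovirus receptor, fell by 0.43 ± 0.10 at 48 h (limma adjusted p = 0.0026), but the mean of its probe sets did not pass (-0.24, limma adjusted p = 0.071).

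**Figure D4:**
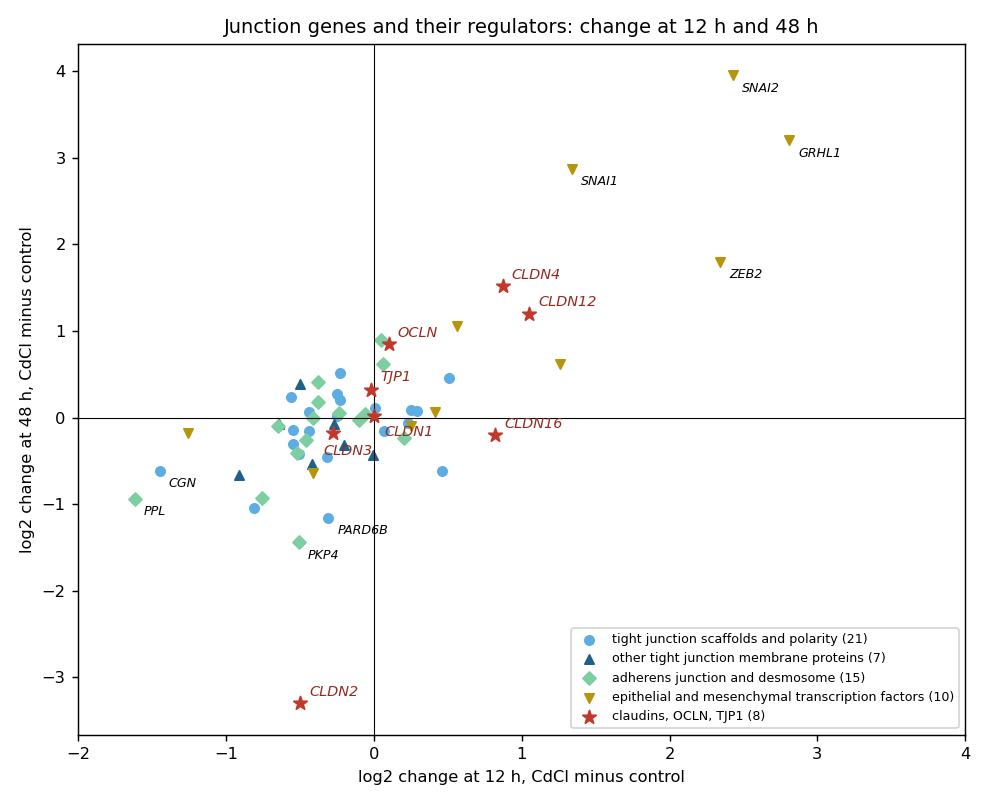
Log2 change, CdCl minus control, at 48 h (vertical) against 12 h (horizontal) for the 8 tested tight junction genes (stars) and the tested genes of 4 other lists, 1 symbol a gene and no error bars. CLDN2 lies lowest, at -3.30 at 48 h. CGN and PPL lie furthest left, with CdCl means close to 4 at 12 h. GRHL1, SNAI1, SNAI2 and ZEB2 lie up and to the right, with fitted values that are not lower bounds for SNAI1 and SNAI2.

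Of 15 tested genes of adherens junctions and desmosomes, 0 were higher and 9 lower at 12 h (median -0.38), or 2 and 6 with arrays centred over the genes tested. At 48 h, 3 were higher and 5 lower (median -0.03), near the 26.5% and 28.0% of all genes. At 12 h 16.7% of all genes were higher and 39.7% lower. PPL, periplakin of the desmosomal plaque, fell by 1.62 ± 0.18 at 12 h and by 0.94 ± 0.18 at 48 h (limma adjusted p = 1.6e-05 and 0.00085). Its CdCl mean at 12 h, 4.34 ± 0.37 (SD), lay close to 4, so that size is uncertain. NECTIN3, an adhesion molecule of the adherens junction, fell by 0.76 ± 0.10 and 0.93 ± 0.10 (limma adjusted p = 7.2e-05 and 1.4e-05), and PKP4, a catenin-related plaque protein, by 0.51 ± 0.11 and 1.44 ± 0.11 (limma adjusted p = 0.0021 and 7.6e-07). DSP, desmoplakin, rose by 0.90 ± 0.11 at 48 h (limma adjusted p = 3.3e-05).

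A further list held transcription factors known to activate or repress junction genes, and the RNA splicing regulator ESRP1. Of its 10 tested genes, 7 were higher and 2 lower at 12 h, and 6 were higher and 1 lower at 48 h. Of all genes 16.7% were higher and 39.7% lower at 12 h, and 26.5% and 28.0% at 48 h. ESRP1 was 1 of the 2 lower at 12 h (-1.26). The median of the 10 was 0.91 at 12 h, or 0.68 with genes below 4 in control cells taken at their bound, and 0.84 at 48 h. GRHL1, a grainyhead-type epithelial activator, averaged 7.51 ± 0.21 in CdCl and 4.70 ± 0.45 in control cells at 12 h (SD; 7.03-fold, change 2.81 ± 0.22, limma adjusted p = 1.5e-06), and rose at 48 h by 3.20 ± 0.22 on the log2 scale (limma adjusted p = 3.7e-07). At 48 h its control mean, 3.81 ± 0.31, lay under 4, so that size is uncertain, and on the mean of its probe sets the change was 1.85. Of the repressors of epithelial genes, SNAI2, SNAI1 and ZEB2 rose: SNAI2 at least 3.10-fold at 12 h and 8.48-fold at 48 h, SNAI1 at least 1.73-fold and 4.37-fold (control arrays, all under 4, set to 4), and ZEB2 by 2.34 ± 0.36 and 1.80 ± 0.36 on the log2 scale (limma adjusted p = 0.00021 and 0.0013). The control means of ZEB2, 4.10 ± 0.49 at 12 h and 4.01 ± 0.70 at 48 h (SD), lay close to 4, so its sizes are uncertain too. Of 2 further such repressors, ZEB1 changed by 1.26 at 12 h and 0.62 at 48 h, and TWIST1 by -0.41 and -0.64. ESRP1, ZEB1 and TWIST1 lie outside the rule for named genes and were chosen after their values were seen.

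Another list held proteases, their inhibitors and kinases linked to claudins or to the tight junction more broadly. Of its 14 tested genes, 2 were higher and 4 lower at 12 h (median -0.07), and 8 were higher and 2 lower at 48 h (median 0.28). Of all genes 16.7% were higher and 39.7% lower at 12 h, and 26.5% and 28.0% at 48 h. SPINT1, an inhibitor of membrane serine proteases, fell by 1.14 ± 0.11 at 12 h (limma adjusted p = 4.3e-06; -0.56 on the mean of probe sets) and rose by 0.29 ± 0.11 at 48 h (limma adjusted p = 0.037), a rise that ended without CdCl 48 h replicate 1 or 2 or any control 48 h array. EPHA2, a receptor kinase that phosphorylates CLDN4, rose by 0.85 ± 0.13 at 48 h (limma adjusted p = 2e-04). ADAM10, a membrane-bound sheddase, fell by 0.78 ± 0.08 at 48 h (limma adjusted p = 1.1e-05), and PRSS8, the membrane serine protease prostasin, rose by 0.62 ± 0.14 (limma adjusted p = 0.0032). MMP7, matrilysin, rose by 0.53 ± 0.10 at 12 h (limma adjusted p = 0.0011).

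The genes whose pattern over the 12 arrays was most like that of CLDN4 and CLDN2 are given as a description, since the arrays fall into 4 groups and share all group differences. For CLDN4 they were NGRN (Pearson r = 0.9949), GNPDA1 (0.9874), ME2 (0.9838), ETHE1 (0.9836) and UPP1 (0.9816). Of these UPP1, uridine phosphorylase, was higher with CdCl by 1.60 at 12 h and 2.93 at 48 h on the log2 scale, against 0.87 and 1.52 for CLDN4. For CLDN2 they were SGK1 (r = 0.9937), DBI (0.9913), TINAG (0.9907), TMEM97 (0.9891) and IFI44 (0.989). SGK1, a kinase that regulates sodium transport, differed by -0.47 at 12 h and -2.10 at 48 h, against -0.50 and -3.30 for CLDN2. TINAG, an antigen of the tubular basement membrane, differed by -0.02 and -2.02.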

How the data were processed

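The authors deposited a log2 value for each probe set, made with GCRMA, per the submitters' processing notes. The sources used here do not name its version. GCRMA corrects background by probe sequence and normalises between arrays, so changes of dim genes can be understated. Levels of different genes were not ranked against each other, and sums over a list are of linear signals of different probe sets, to be read only between groups. Of 54675 probe sets, 41097 carried 1 gene symbol, 1801 several and 11777 none. A gene was represented by the brightest of its 1-symbol probe sets, by the mean of all 12 arrays, and tested if above 4 on at least 3 arrays.

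One fit of the 4 group means with lmFit and eBayes (limma 3.58.1, R 4.3.3) gave 5 two-sided comparisons, adjusted by Benjamini-Hochberg over 10683 genes with a threshold of 0.05. Intervals are 95% intervals of the fit. The number of arrays limits the precision. The steps were tested on simulated data. The tight junction genes and the lists set beside them were chosen with earlier results of these data known. The text names all 9 genes and the 5 genes most correlated with the genes of largest rise and fall. Named list genes were picked, with their values known, from the up to 4 genes past the threshold with the largest change per list and time, and values at the other time are given for some. Other genes without a 1-symbol probe set were not analysed here. Replicate numbers gave no sign of pairing within a time: deviations of same-numbered CdCl and control arrays correlated at -0.34 to 0.00. Arrays of different times were not compared in this way, so these values cannot show that the cultures were unpaired.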

Additional observations from a re-analysis of the deposited data

Results flagged for a closer look

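Among the tight junction genes, 5 had an effect of CdCl that differed between 48 h and 12 h by the interaction term of the limma fit. The difference (48 h minus 12 h, log2) was -2.80 for CLDN2, -1.02 for CLDN16, 0.64 for CLDN4, 0.75 for OCLN and 0.34 for TJP1. For CLDN16 the 3 CdCl arrays lay above the controls at 12 h and below them at 48 h, and control cells themselves were higher at 48 h by 2.48. The value for TJP1 passed the threshold only narrowly (limma adjusted p = 0.041), and with arrays centred over the genes tested it was 0.21 (limma adjusted p = 0.23). With 3 arrays a group, single arrays were not tested for standing apart.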

How the results depend on the processing

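Over all genes, 6029 of the 10683 tested passed the threshold at 12 h as reported, and 5353 to 6267 genes did in the alternatives. The count of tight junction genes past the threshold at 12 h was 5 as reported. It was 3 with no filter on low values, with quantile normalization and with a replicate block. With arrays centred over the genes tested (added after seeing the data) the count was also 3. When each array was left out in turn it was 3 to 4. It was 6 on the mean of probe sets, where CLDN1 also passed (0.37, limma adjusted p = 0.001). Where the count was 3, CLDN2 and CLDN3 were both lost, and where it was 4, 1 of them was. By contrast, CLDN4, CLDN12 and CLDN16 stayed higher at 12 h in all alternatives run. The replicate block changed no other count of these genes by over 1.5 times, and the numbers gave no sign of pairing within a time. Calls of CLDN2, CLDN4, CLDN12, OCLN and TJP1 at 48 h held in every alternative run for them. Changes of sign fell on values near 0 or on second probe sets, and the cause was not tested. For CLDN1 the 12 h change ran from -0.03 to 0.03 without single arrays, and the 48 h change was 0.00 with arrays centred on their median. Its interaction was -0.01 with that centring, -0.11 centred over the genes tested, -0.33 on the mean of probe sets, -0.68 on the second probe set and -0.01 to 0.05 without single arrays. Its change in control cells was 0.02 centred over the genes tested, 0.29 on the mean of probe sets and 0.65 on the second probe set. The CLDN3 interaction was -0.02 centred over the genes tested, -0.27 on the mean of probe sets and -0.03 to 0.18 without single arrays. The OCLN change at 12 h was -0.10 on the mean, -0.45 on the second probe set and -0.01 to 0.17 without single arrays. That of TJP1 was 0.13 centred over the genes tested, 0.12 on the mean, 0.25 on the second probe set and -0.09 to 0.03 without single arrays. CLDN3 at 48 h was -0.53 on the mean of probe sets (limma adjusted p = 0.00073). A fit of only the groups compared cannot give the interaction, and only CLDN1, OCLN and TJP1 have a second tested probe set. Signals near the background limit what can be seen of CLDN7 and of the second probe sets of CLDN3 and CLDN4.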
